A study of Mus musculus with 6 samples.

Results

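The major histocompatibility complex (MHC) and antigen presentation genes were followed in mouse embryonic fibroblasts (MEFs) with and without Mcm8. Members were the protein-coding genes of the count table with an H2- symbol, plus the MHC class I light chain gene B2m, the peptide transport, loading and trimming genes Tap1, Tap2, Tapbp and Erap1, the immunoproteasome subunits Psmb8, Psmb9 and Psmb10, the transactivators Nlrc5 and Ciita, and the invariant chain Cd74. The rule gave 45 of the 55565 genes in the table, of which 21884 were protein-coding. It split the H2 genes into 2 class I, 22 class I-like and 9 class II genes, and left 11 H2 pseudogenes out. The remaining H2 symbol, H2-Ke6, is described in the table as a dehydrogenase and was kept apart from the MHC chains. A read was counted for 32 members in at least 1 library, and 13 were at 0 in all 6 libraries.

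The cells were immortalized MEFs from the trunks of day 13.5 embryos of the same heterozygous crosses, 3 libraries from WT and 3 from Mcm8 KO cells. Mcm8 encodes a helicase subunit of DNA repair, and the KO allele lacks an exon. All cells of both genotypes carried the SV40 sequence and the puromycin selection used to immortalize them, and came from a mixed C57BL/6J and ICR stock. WT and KO cells of such a stock may carry different H2 haplotypes, and reads of a haplotype unlike the single reference used for alignment may be counted less fully or for a similar gene. The part of this in the H2 differences given here was not tested. The sources call the libraries biological repeats without saying whether they came from separate embryos or cultures, so the p-values measure the spread between these libraries, which may be technical. Total counts ran from 12722979 to 21022755 per library, and the members held 0.0769% to 0.0957% of them. Mcm8 itself stood at 13.8, 16.6 and 12.8 CPM (read counts scaled by library total and TMM factor) in WT and 4.20, 4.45 and 4.12 in KO cells, a log2 fold change of -1.75 with an adjusted p of 4.45e-26 by edgeR's quasi-likelihood test.

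MHC class I molecules show peptides from inside the cell to CD8+ T cells and are made by nearly every nucleated cell. Peptides are cut by the proteasome, moved into the endoplasmic reticulum by the Tap1-Tap2 transporter, trimmed by Erap1, and loaded with the help of tapasin (Tapbp) onto a heavy chain paired with B2m. MHC class II molecules are mainly found on professional antigen-presenting cells and depend on Ciita, while Nlrc5 drives class I genes. Fibroblasts have class I at a basal level and express class II only after stimulation, classically by interferon gamma.

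In the KO cells the class I gene H2-D1, the class I-like gene H2-Q4 and the immunoproteasome subunits Psmb8 and Psmb9 were higher, and 3 neighbouring class I-like genes of the T region, H2-T22, H2-T23 and H2-T24, were lower. At an adjusted p below 0.05, 4 of the 32 members tested were called higher, against 4.97% of all 26898 genes tested, and 3 were called lower, against 4.03%. All 7 were among the 18 members with a mean of at least 1 CPM in either genotype. Among all 13547 genes at that level, 9.33% were called higher and 7.82% lower. The 3 lower members also passed an absolute log2 fold change of 1, a rule that 0.665% of all genes met on the lower side and 1.75% on the higher side, where there were 0 members. The median log2 fold change of the 18 members was 0.21, beside -0.01 over all genes at that level, with 14 values above 0 and 4 below.

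**Figure D1:**
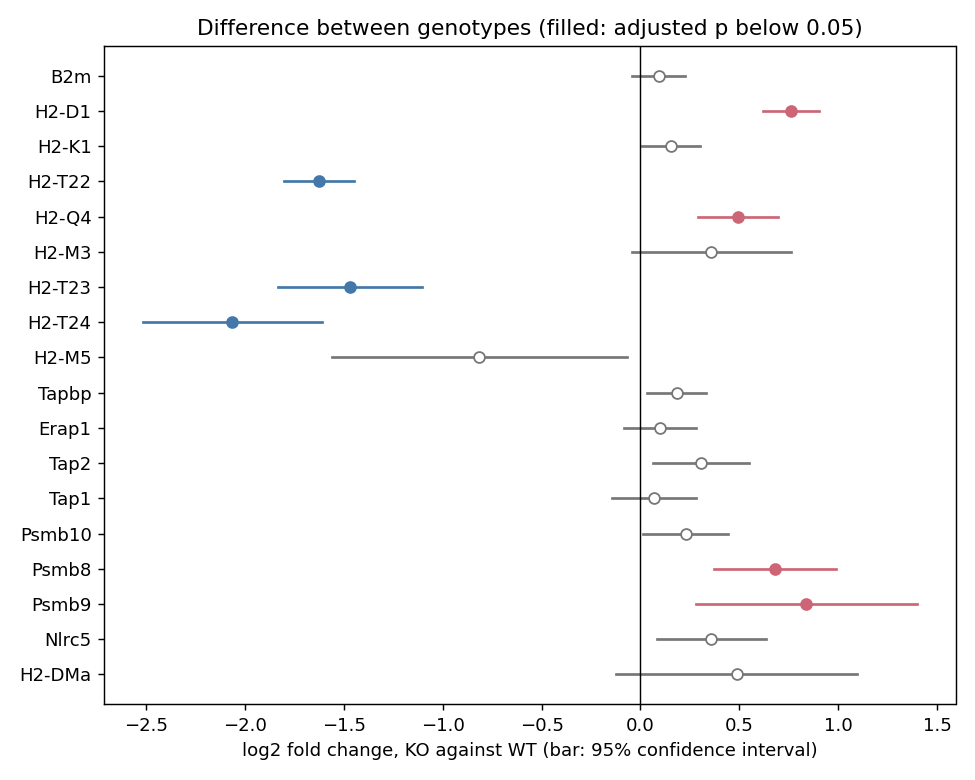
Log2 fold change of KO against WT cells (x axis) for the 18 members with a mean of at least 1 CPM (y axis), with the 95% confidence interval as a bar. Filled points passed an adjusted p below 0.05. H2-D1, H2-Q4, Psmb8 and Psmb9 lie to the right of 0, and H2-T22, H2-T23 and H2-T24 lie farthest to the left.

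Levels between genes are comparable only per length, so the deposited FPKM (fragments counted per gene length and per library total) were used for the order of the members. B2m was the most abundant, at 301 ± 37.4 FPKM (SD, n = 3) in WT and 320 ± 17.8 in KO cells. H2-D1 followed at 51.4 ± 5.43 and 87.1 ± 1.83 FPKM, and H2-K1 at 34.7 ± 1.95 and 38.5 ± 1.34. Tapbp, the peptide-loading chaperone tapasin, stood next in KO cells at 30.9 ± 0.366 FPKM, above its 27.3 ± 1.72 in WT cells. H2-T22 changed place in the order. In WT cells it stood at 21.1 ± 0.571 FPKM, above Psmb10 at 11.4 ± 2.51 and H2-Q4 at 8.10 ± 1.82. In KO cells it stood at 6.85 ± 0.385, below Psmb10 at 13.3 ± 1.05 and H2-Q4 at 11.3 ± 0.295. WT levels of Psmb10 and H2-Q4 overlapped between libraries. In all, 15 members had a mean above 1 FPKM in either genotype, and B2m, H2-D1, H2-K1 and Tapbp together held 72.5% of the members' CPM in WT and 79.0% in KO cells.

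**Figure D2:**
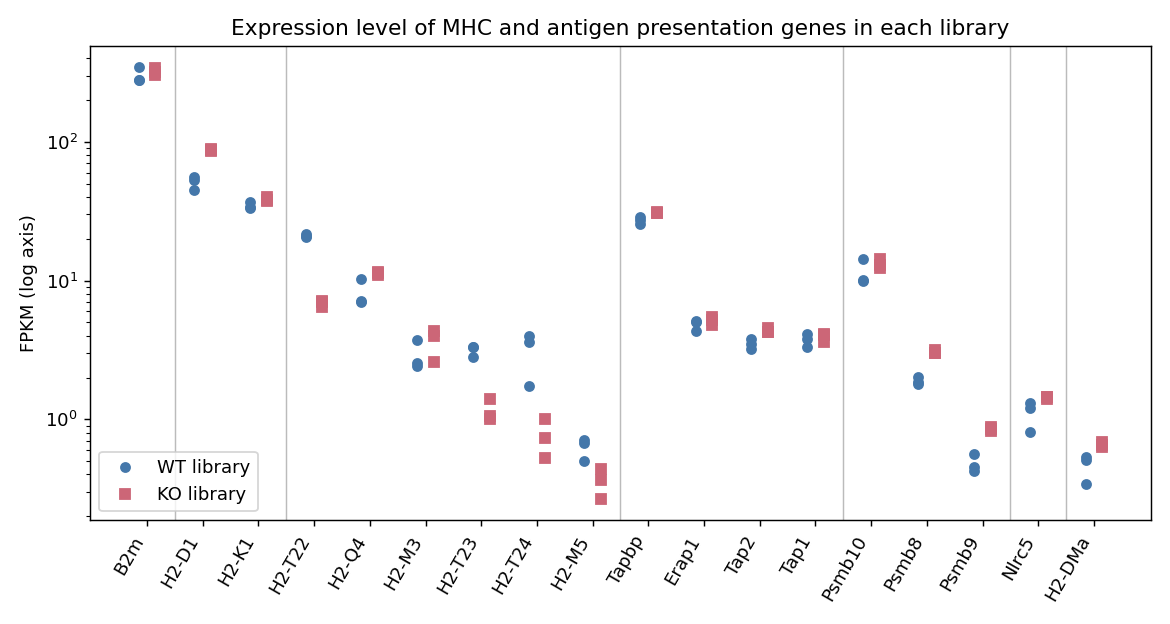
FPKM on a log axis (y axis) of the 18 members with a mean of at least 1 CPM (x axis, grouped by role with grey lines between groups), with a circle for each WT and a square for each KO library. B2m lies between 279 and 344 FPKM, and the KO squares of H2-T22, H2-T23 and H2-T24 lie below all WT circles.

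Classical class I genes are known for a conserved upstream control region. Promoter stretches are shown for both of them, for B2m and for 4 class I-like genes. They set genes that moved beside genes that did not. The stretches below were cut from RefSeq promoters (GRCm38.p6), which held 38 of the 45 members, in the direction of transcription. Capitals mark matches, on either strand, to motifs chosen after the sequences and values were seen. These were GATTNCCC (of the NF-kB type), TTTCACTT (of the interferon-response type), TGNTGAC (of the CRE type) and CCAAT.
H2-D1 (chr17:35262915-35263059, plus strand): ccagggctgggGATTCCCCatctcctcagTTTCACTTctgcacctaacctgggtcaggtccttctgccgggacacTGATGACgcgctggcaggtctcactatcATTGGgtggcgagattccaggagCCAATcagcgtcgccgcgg
H2-K1 (chr17:34000322-34000466, minus strand): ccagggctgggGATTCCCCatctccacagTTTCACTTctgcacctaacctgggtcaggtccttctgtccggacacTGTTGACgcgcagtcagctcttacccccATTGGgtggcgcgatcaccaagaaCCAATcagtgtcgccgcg
H2-Q4 (chr17:35379435-35379579, plus strand): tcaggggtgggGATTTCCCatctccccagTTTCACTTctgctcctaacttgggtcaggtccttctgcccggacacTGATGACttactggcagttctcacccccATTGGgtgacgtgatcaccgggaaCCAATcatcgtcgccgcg
H2-M3 (chr17:37270110-37270254, plus strand): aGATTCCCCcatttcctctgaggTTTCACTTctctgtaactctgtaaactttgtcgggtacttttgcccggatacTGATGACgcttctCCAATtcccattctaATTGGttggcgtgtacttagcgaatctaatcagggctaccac
B2m (chr2:122147531-122147675, plus strand): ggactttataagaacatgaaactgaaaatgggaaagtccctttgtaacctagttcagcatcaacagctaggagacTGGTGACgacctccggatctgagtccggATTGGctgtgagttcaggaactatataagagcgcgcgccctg
H2-T22 (chr17:36042816-36042960, minus strand): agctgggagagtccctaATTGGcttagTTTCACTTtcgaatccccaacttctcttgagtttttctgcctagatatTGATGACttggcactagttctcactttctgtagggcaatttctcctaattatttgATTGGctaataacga
H2-T23 (chr17:36032652-36032795, minus strand): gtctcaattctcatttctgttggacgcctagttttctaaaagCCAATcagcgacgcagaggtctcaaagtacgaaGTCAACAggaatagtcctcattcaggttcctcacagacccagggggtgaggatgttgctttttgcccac
In the 32544 distinct promoters of 300 bases, 2.60% held GATTNCCC, 1.61% TTTCACTT, 14.1% TGNTGAC and 37.4% CCAAT. H2-D1, H2-K1, H2-Q4 and H2-M3 held GATTNCCC, TTTCACTT and TGNTGAC in the same order, followed by CCAAT matches. H2-T22 held TTTCACTT and TGNTGAC with no GATTNCCC, and B2m held TGNTGAC and CCAAT. H2-T23 held a TGNTGAC match on the opposite strand and a CCAAT in the stretch shown. Each stretch was placed around the first TGNTGAC match. In H2-T23 that match lay at -19 from the transcription start, against -143 to -49 in the other genes shown. Its stretch ran 50 bases past the start, those of H2-K1 and H2-M3 12 and 21. The H2-T23 stretch may therefore not be the region that corresponds to the others. Read without gaps from the TGNTGAC match, the stretches of H2-K1 and H2-Q4 were identical to that of H2-D1 at 76.6% and 75.2% of 145 bases, while those of H2-M3 and H2-T22 were at 45.5% and 37.9%. B2m, which is no heavy chain, was at the same 37.9% as H2-T22. The H2-M5 promoter held 0 matches to any of the motifs, and H2-T24 had no entry. A match describes letters only and says nothing of a factor's binding. Other spellings of such sites were not searched, in B2m or in any other gene. A missing match therefore does not mean that a site of that type is absent.

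Of the classical class I heavy chains, H2-D1 rose and H2-K1 did not pass the test. H2-D1 (ENSMUSG00000073411, chr17:35481706-35486475, GRCm39) stood at 143, 117 and 139 CPM in the WT libraries and at 231, 224 and 221 CPM in the KO libraries. Every KO library lay above every WT library. The log2 fold change was 0.76 ± 0.07 (SE), or 1.69-fold, with an adjusted p of 4.40e-24 by edgeR's quasi-likelihood test. H2-K1 (ENSMUSG00000061232, chr17:34214991-34219321) gave 108, 98.0 and 100 CPM in WT and 113, 118 and 111 CPM in KO cells. Those groups did not overlap either, but the log2 fold change was 0.15 (95% confidence interval 0.01 to 0.30) with an adjusted p of 0.241. Without WT replicate 1 it was 0.20 with an adjusted p of 0.00831.

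The balance between both heavy chains was also read within each library, where scaling between libraries plays no part. The ratio of H2-K1 to H2-D1 FPKM was 0.665, 0.736 and 0.632 in WT and 0.427, 0.462 and 0.439 in KO cells. The ratio was lower in all KO libraries than in any WT library, and the difference of its log2 was -0.61. Its exact two-sided permutation p was 0.1, the smallest that 3 against 3 libraries can give, and 0.15 after adjustment over the 6 ratios computed. B2m, the light chain that both share, stood at 296, 241 and 242 CPM in WT and 276, 292 and 262 CPM in KO cells, with overlapping groups. Its log2 fold change of 0.09 (95% confidence interval -0.04 to 0.23) had an adjusted p of 0.544, and without WT replicate 1 it was 0.19 with an adjusted p of 3.90e-04, while it was 0.04 without WT replicate 2 or WT replicate 3. Set against the sum of H2-K1 and H2-D1, the FPKM ratio of B2m was 3.72, 3.57 and 3.20 in WT and 2.51, 2.67 and 2.47 in KO cells, lower in every KO library with a log2 difference of -0.45 and the same exact p of 0.1 and adjusted p of 0.15.

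Among the class I-like genes, 6 of 22 reached 1 CPM and were split in direction. H2-Q4 (ENSMUSG00000035929, chr17:35598593-35604266), a Q-region heavy chain, gave 26.5, 18.5 and 18.4 CPM in WT and 28.7, 30.1 and 29.7 CPM in KO cells. All KO values lay above all WT values, WT replicate 1 came closest to them, and the log2 fold change was 0.49 ± 0.10 (SE) with an edgeR adjusted p of 6.33e-05. H2-T22 (ENSMUSG00000056116, chr17:36348020-36353639), whose product is known as a ligand of gamma delta T cells, went from 70.7, 74.5 and 72.2 CPM in WT to 24.1, 24.4 and 21.98 CPM in KO cells. The groups lay far apart, with KO at 32.4% of the WT mean, and the log2 fold change of -1.62 ± 0.09 (SE) had an edgeR adjusted p of 5.84e-70. H2-T23 (ENSMUSG00000067212, chr17:36340665-36343747) encodes Qa-1, which presents leader peptides of other class I chains to the CD94-NKG2A receptor. It stood at 9.64, 8.13 and 9.77 CPM in WT and at 2.93, 4.03 and 3.06 CPM in KO cells, with no overlap. Its log2 fold change was -1.47 ± 0.19 (SE), with an edgeR adjusted p of 2.69e-13. H2-T24 (ENSMUSG00000053835, chr17:36316587-36331452) gave 3.76, 8.70 and 7.94 CPM in WT and 1.61, 1.14 and 2.19 CPM in KO cells. WT replicate 1 was the low WT library and still lay above the KO libraries, and the log2 fold change was -2.06 ± 0.23 (SE) with an edgeR adjusted p of 4.27e-17.

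The size of these adjusted p-values depended on the fit. With expression filtering, edgeR gave adjusted p-values of 1.08e-05 for H2-D1, 0.0165 for H2-Q4, 7.06e-09 for H2-T22, 7.37e-05 for H2-T23 and 4.95e-04 for H2-T24, and limma-voom gave 9.98e-08, 0.00969, 8.33e-11, 4.08e-05 and 5.07e-04 in the same order.

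**Figure D3:**
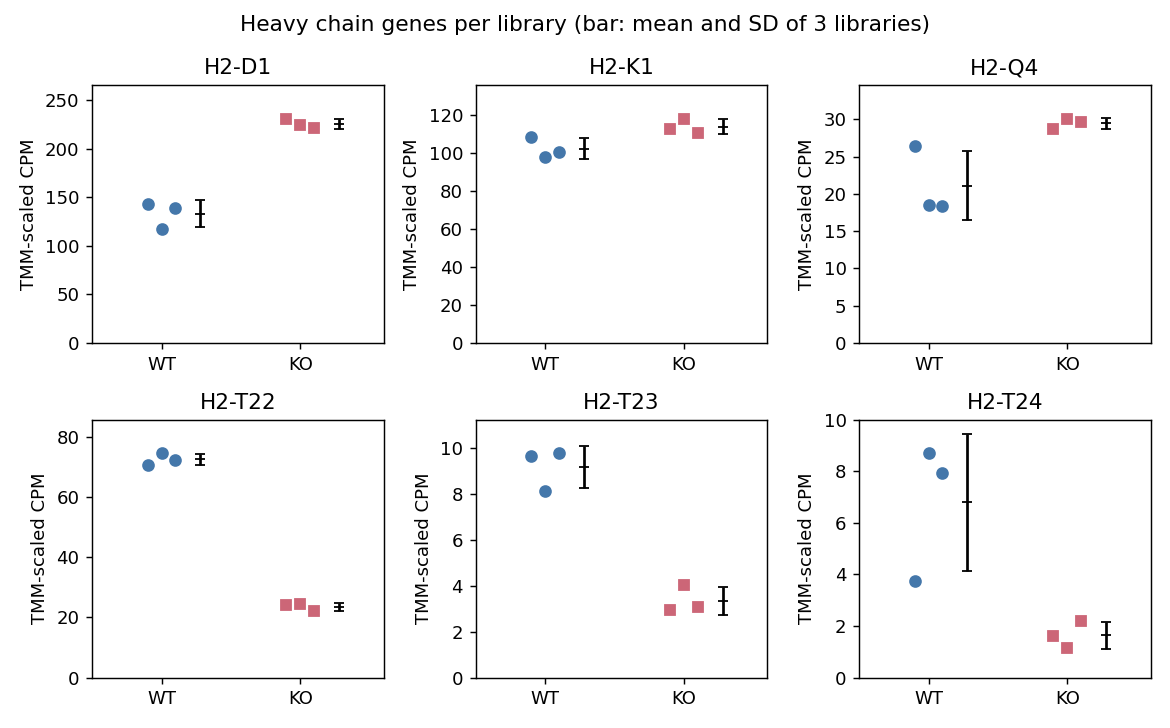
TMM-scaled CPM (y axis, from 0) of 6 heavy chain genes in the WT (circles) and KO (squares) libraries, with the mean and SD of 3 libraries beside them. H2-D1 and H2-Q4 are higher in every KO library, H2-K1 is higher by a small step, and H2-T22, H2-T23 and H2-T24 are lower in every KO library.

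The lower T-region genes sit within 37.1 kb of each other. Their neighbour H2-T10, a polymorphic pseudogene in the table and so no member, is 73.1 kb from H2-T22 and moved the other way. It stood at 2.74, 2.57 and 2.74 CPM in WT and at 10.3, 10.9 and 11.4 CPM in KO cells, a log2 fold change of 2.01 ± 0.19 (SE) with an edgeR adjusted p of 4.21e-25. The pair is near-identical in part, since 31.2% of the 50-base words of the H2-T22 transcripts (GENCODE M21) also occur in those of H2-T10, though only 0.384% of the 150-base words do. How reads that fit both were assigned is not given in the sources used here, so the split between both genes is uncertain. Summed over the pair, WT libraries gave 73.4, 77.1 and 74.98 CPM and KO libraries 34.4, 35.3 and 33.4 CPM. The sum was lower in every KO library, with a log2 fold change of -1.13 and an adjusted p of 3.98e-37 in a fit added after the values were seen. H2-T10 made up 3.57% of the pair in WT and 31.7% in KO cells. For the other class I-like genes with called differences, shared 50-base words made up 21.8% in H2-Q4, 13.6% in H2-T23 and 3.17% in H2-T24, and 12.8% in H2-D1.

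H2-M3, which presents formylated peptides, gave 5.33, 3.64 and 3.54 CPM in WT and 5.81, 6.25 and 3.75 CPM in KO cells. The groups overlapped, and the log2 fold change of 0.36 had an adjusted p of 0.364. With 1 library left out it ran from 0.23 to 0.56. H2-M5 was the remaining class I-like gene above 1 CPM, at 1.80, 1.35 and 1.93 CPM in WT and 0.991, 0.721 and 1.19 CPM in KO cells. Although these groups did not overlap, its log2 fold change of -0.81 (95% confidence interval -1.56 to -0.07) had an adjusted p of 0.210. The class I-like genes together came to 116 ± 1.74 CPM (SD, n = 3) in WT and 65.8 ± 2.17 CPM in KO cells, a sum in which H2-T22 is the largest WT term. Below 1 CPM, H2-M10.2, H2-Q1, H2-Q7, H2-Q10, H2-Q6 and H2-T3 had counts and none was called by edgeR. Among them H2-Q1 showed the clearest separation, at 1, 1 and 2 counts in WT and 6, 11 and 5 in KO cells, with an unadjusted p of 0.0313 and an adjusted p of 0.206. H2-Q1 is also the gene that shares most with H2-D1, at 5.87% of the 50-base and 1.35% of the 150-base words of H2-D1. Whether H2-D1 reads are among these few counts was not tested. The other 10 class I-like genes were at 0 in all libraries.

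None of the 4 loading genes passed the test by edgeR. Tapbp gave 105, 92.4 and 101 CPM in WT and 114, 111 and 112 CPM in KO cells, and Tap2, one chain of the peptide transporter, gave 12.1, 13.1 and 14.6 CPM in WT and 16.1, 17.2 and 16.1 CPM in KO cells. In both cases all KO libraries lay above all WT libraries, but log2 fold changes of 0.18 and 0.30 had adjusted p-values of 0.127 and 0.116. Tap1, its partner chain, gave 22.6, 18.1 and 20.99 CPM in WT and 20.0, 22.1 and 22.7 CPM in KO cells, with overlapping groups, a log2 fold change of 0.07 and an adjusted p of 0.767. Without WT replicate 2 the value was -0.012, and without WT replicate 1 it was 0.13. The peptide trimmer Erap1 gave 36.4, 37.4 and 32.1 CPM in WT and 38.3, 39.7 and 35.0 CPM in KO cells, also overlapping, with a log2 fold change of 0.10 and an adjusted p of 0.627, and from 0.03 to 0.15 with 1 library left out. The ratio of Tap1 to Tap2 FPKM was 1.29, 0.953 and 0.993 in WT and 0.857, 0.888 and 0.971 in KO cells. Those ratios overlapped, with an exact permutation p of 0.2 and a log2 difference of -0.24, or -0.11 without WT replicate 1. Without WT replicate 1, Tapbp passed the test at an adjusted p of 0.00262.

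The immunoproteasome subunits replace the constitutive catalytic subunits Psmb5, Psmb6 and Psmb7 and change which peptides are cut. Psmb8 (ENSMUSG00000024338, chr17:34416695-34420428), which replaces Psmb5, gave 6.27, 6.06 and 6.92 CPM in WT and 10.1, 10.7 and 10.2 CPM in KO cells. The groups did not overlap, and its log2 fold change of 0.68 ± 0.16 (SE), 1.604-fold, had an edgeR adjusted p of 3.77e-04. Psmb9 (ENSMUSG00000096727, chr17:34400961-34406738), which replaces Psmb6, was counted 21, 29 and 29 times in WT and 69, 50 and 50 times in KO cells, or 1.65, 2.07 and 1.56 CPM against 3.26, 3.01 and 3.12 CPM. All KO values lay above the WT values, and the log2 fold change of 0.84 ± 0.28 (SE) had an edgeR adjusted p of 0.0388. This call was the least stable of the 7, since it was lost under DESeq2 (adjusted p of 0.113) and limma-voom (0.0806) at log2 fold changes of 0.84 and 0.85, with robust prior degrees of freedom (0.0502), with thinned counts (0.376 at a log2 fold change of 0.53), and when WT replicate 1, WT replicate 3 or any KO library was left out, at adjusted p-values from 0.0545 to 0.141. Psmb10, which replaces Psmb7, gave 24.5, 17.2 and 17.01 CPM in WT and 24.7, 22.3 and 21.2 CPM in KO cells. WT replicate 1 lay among the KO values, the log2 fold change was 0.23, and the adjusted p was 0.225. Without WT replicate 1 the log2 fold change was 0.41 with an adjusted p of 0.00278, and without WT replicate 3 it was 0.13.

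Measured against the subunit each replaces, the Psmb8 to Psmb5 FPKM ratio was 0.0250, 0.0375 and 0.0316 in WT and 0.0388, 0.0403 and 0.0392 in KO cells. The Psmb9 to Psmb6 ratio was 0.00534, 0.00853 and 0.00597 in WT and 0.0113, 0.0104 and 0.0109 in KO cells. Both were higher in every KO library, by 0.35 and 0.75 on the log2 scale, with an exact permutation p of 0.1 and an adjusted p of 0.15 each. Without WT replicate 1 the Psmb8 to Psmb5 difference was 0.20. On log2 of FPKM plus 1, the differences were 0.15 and 0.23. The Psmb10 to Psmb7 ratio, 0.437, 0.352 and 0.379 in WT and 0.504, 0.452 and 0.400 in KO cells, overlapped, with an exact permutation p of 0.2 and a log2 difference of 0.21, or 0.13 without KO replicate 1. Psmb5 itself was called higher in KO cells, with a log2 fold change of 0.32 and an edgeR adjusted p of 0.00217, so the Psmb8 ratio moved less than Psmb8.

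**Figure D4:**
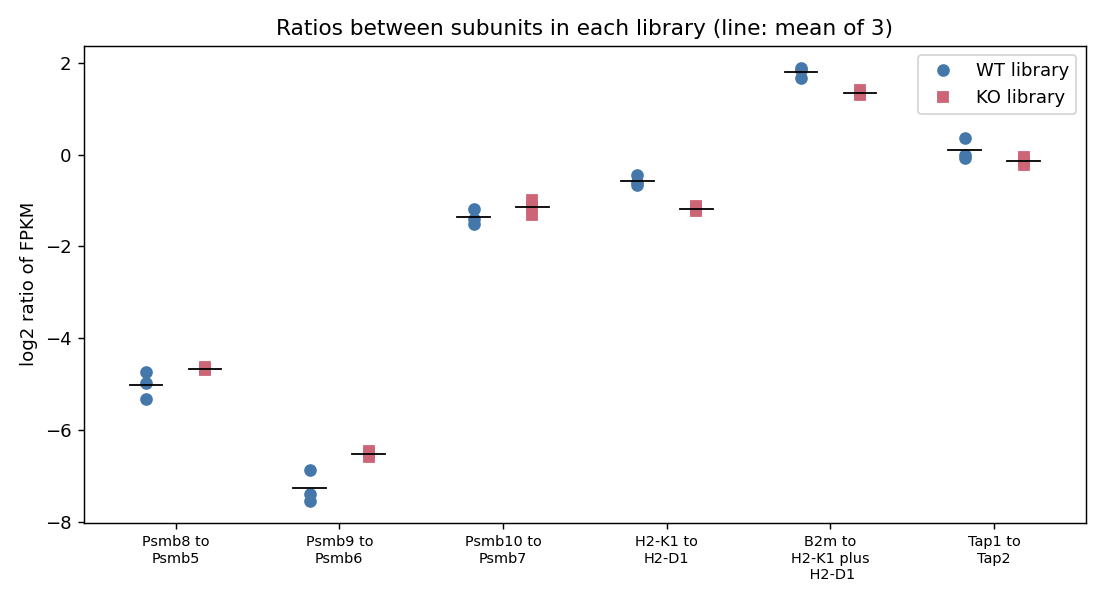
Log2 of the FPKM ratio (y axis) for 6 pairs of subunits (x axis) in the WT (circles) and KO (squares) libraries, with a line at the mean of 3. The KO libraries lie above the WT libraries for Psmb8 to Psmb5 and Psmb9 to Psmb6 and below them for H2-K1 to H2-D1 and B2m to the summed heavy chains, and they overlap for Psmb10 to Psmb7 and Tap1 to Tap2.

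Psmb9 and Tap1 are divergent neighbours whose transcripts begin on opposite strands of a common stretch of 225 bases. It is shown because Psmb9 was called higher and Tap1 was not. The sequence runs from just past the Psmb9 start to just before the Tap1 start, and its capitals mark the same motifs.
Psmb9 to Tap1 (chr17:34187331-34187555, plus strand): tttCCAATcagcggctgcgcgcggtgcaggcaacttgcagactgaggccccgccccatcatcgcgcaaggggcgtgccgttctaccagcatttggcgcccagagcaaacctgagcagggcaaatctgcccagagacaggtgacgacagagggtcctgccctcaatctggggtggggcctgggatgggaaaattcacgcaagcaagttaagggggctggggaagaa
The stretch held a CCAAT match beside the Psmb9 start and none of the other motifs. The gene spans of Psmb9 and Tap1 overlap by 212 bp in the table. Other called members overlap only sparsely counted genes, and the strand setting of the counting is not given in the sources used here. Erap1 overlaps Cast, and H2-DMa overlaps Brd2, on the opposite strand, in 11.5% and 10.4% of their exonic bases in GENCODE M21, so reads of these pairs cannot be fully told apart without strand.

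Nlrc5, the class I transactivator, gave 6.90, 11.05 and 10.4 CPM in WT and 12.0, 12.3 and 12.3 CPM in KO cells. All KO libraries lay above the WT libraries, WT replicate 1 was the low one, and the log2 fold change of 0.36 (95% confidence interval 0.08 to 0.63) had an adjusted p of 0.0968. Without WT replicate 1 the log2 fold change was 0.19 with an adjusted p of 0.516, and without WT replicate 2 it was 0.47 with an adjusted p of 0.0266. Ciita, the class II transactivator, had 4, 5 and 5 counts in WT and 10, 7 and 2 in KO cells, which overlap and lie near the floor of 3 counts.

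Class II genes were at or near the limit of detection. H2-DMa, a chain of the peptide editor of class II, was the only one above 1 CPM, with 15, 26 and 33 counts in WT and 48, 36 and 38 in KO cells, or 1.18, 1.85 and 1.77 CPM against 2.27, 2.16 and 2.37 CPM. Its groups did not overlap, but the log2 fold change of 0.49 had an adjusted p of 0.446, and it was 0.32 without WT replicate 1. H2-DMb1, its partner chain, had 5, 6 and 10 counts in WT and 10, 6 and 5 in KO cells. H2-Eb1, a peptide-binding beta chain, had 8, 2 and 0 counts in WT and 6, 5 and 3 in KO cells, and H2-Ab1, another, had 0, 4 and 0 in WT and 0, 0 and 1 in KO cells. H2-DMb2 had 0, 0 and 2 counts in WT and 6, 1 and 1 in KO cells, and H2-Oa, of the DM inhibitor, had 1, 0 and 0 in WT and 6, 1 and 0 in KO cells. The alpha chain H2-Aa, H2-Eb2 and H2-Ob were at 0 in all libraries, which allows up to 3 counts in a library, or 0.143 to 0.236 CPM at these depths. Cd74, the class II chaperone, had 3, 2 and 9 counts in WT and 3, 5 and 7 in KO cells. Without H2-DMa, the class II genes summed to 14, 12 and 12 counts in WT and 28, 13 and 10 in KO cells. These sums overlapped and were not tested.

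Across the 18 members above 1 CPM, all KO libraries lay above all WT libraries for 9 and below them for 4, beside 17.4% and 17% of all genes at that level. The members on chromosome 17 lay within 3.66 Mb, and 7 of the 14 above 1 CPM there were called. Among the 79 other genes of that span above 1 CPM, 7 were higher and 5 lower, or 15.2% in all, with a median log2 fold change of 0.06. B2m lies on chromosome 2, 10.7 Mb from Mcm8.

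The 8 wider lists of the pathway held 83 genes of at least 1 CPM, of which 11 were called higher and 5 lower, beside the 9.33% and 7.82% of all genes at that level. Of the peptide-loading and chaperone genes of the endoplasmic reticulum and cytosol, 0 of 10 were called in either direction by edgeR. The proteasome list had 1 of 9 called higher, which was Psmb5, the lysosomal processing list 1 of 9, the cathepsin Ctsb (log2 fold change 0.30), and the class II enhanceosome list 1 of 7 called lower, Nfya (-0.22). The interferon and NF-kB signalling list had 4 of 18 genes, or of the 17 of at least 1 CPM, called higher and 0 lower by edgeR, beside the same 9.33% and 7.82%. Its largest were Socs3, an inhibitor of cytokine signalling, from 22.2 ± 0.595 to 37.3 ± 2.55 CPM (SD, n = 3; log2 fold change 0.75), and Relb, an NF-kB subunit, from 16.5 ± 0.149 to 25.5 ± 1.97 CPM (0.62). Irf1, an activator of class I genes, was higher by a smaller step (0.39), with Ifnar2 (0.30). Among the interferon-stimulated genes, 1 of 20 was higher and 2 lower. Gbp2, a GTPase, went from 5.44 ± 1.53 to 11.3 ± 0.934 CPM (log2 fold change 1.08), while Ifit3 went from 4.62 ± 0.277 to 2.91 ± 0.331 CPM (-0.66), and Ifit2 was also lower (-0.44).

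Of the class I-like genes outside H2, 12 were found in the table, 9 had a count and 8 reached 1 CPM. Among these 8, 4 were called higher and 1 lower, beside 9.33% and 7.82% of all genes at that level. Mr1, which presents vitamin metabolites to MAIT cells, went from 3.79 ± 0.755 to 5.98 ± 0.555 CPM (SD, n = 3; log2 fold change 0.65). Hfe, the iron-regulating relative of class I, went from 1.62 ± 0.429 to 2.92 ± 0.0866 CPM (0.84). Raet1d and Raet1e are ligands of the NKG2D receptor. Raet1d went from 2.12 ± 0.237 to 3.65 ± 0.327 CPM (0.78) and Raet1e from 1.79 ± 1.44 to 5.46 ± 0.540 CPM (1.62). The WT libraries of Raet1e were spread widely, at 0.705, 3.42 and 1.23 CPM. Raet1d lies within the span of Raet1e on the same strand, with the same end. As similar genes they may also share reads, so their calls may not be independent. Another NKG2D ligand, Ulbp1, was lower (-0.32). Of the co-stimulatory and checkpoint molecules, 9 were listed and 5 reached 1 CPM, and 1 of them, Cd40, was called. Cd40 went from 10.5 ± 0.992 to 1.597 ± 0.425 CPM, a log2 fold change of -2.73 with an edgeR adjusted p of 2.24e-36.

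Markers of other cells were examined, since the presentation genes are also expressed by cells that a culture can hold. In bulk RNA, fewer cells of a type and less RNA per cell cannot be told apart. All 10 fibroblast markers were detected, with sums between 20861 and 22793 CPM in WT and between 21441 and 22060 CPM in KO cells, with 2 called higher and 4 lower by edgeR, beside 9.33% and 7.82% of all genes of at least 1 CPM, and a median log2 fold change of -0.02. Col1a1 rose from 8634 ± 749 to 9940 ± 234 CPM (SD, n = 3; log2 fold change 0.20) and Col3a1 from 1136 ± 41.1 to 1385 ± 22.6 CPM (0.29). Thy1 fell from 394 ± 9.30 to 194 ± 5.99 CPM (SD, n = 3) and Pdgfrb from 472 ± 36.5 to 282 ± 3.83 CPM, and Vim and Postn were lower by smaller steps (-0.19 and -0.45). Of the 12 macrophage and myeloid markers 7 were detected, with sums between 2.28 and 2.79 CPM in WT and between 2.69 and 3.73 CPM in KO cells, with Adgre1, Itgam, Tyrobp, C1qa and C1qb at 0 in all libraries. Of that list, Csf1r had 0, 5 and 7 counts in WT and 12, 6 and 7 in KO cells, and Cd68 had 23, 25 and 40 in WT and 60, 30 and 30 in KO cells. Dendritic and B markers, 4 of 7 detected, summed to at most 0.314 CPM in WT and 0.240 CPM in KO cells, with Ms4a1 at 0. Erythroid markers had 1 of 4 detected, with a highest value of 0.549 CPM among WT and 1.37 CPM among KO libraries. Endothelial markers, 4 of 6 detected, gave sums between 1.25 and 3.99 CPM in WT and between 3.07 and 4.33 CPM in KO cells. Mesothelial markers, 4 of 5 detected, gave sums between 2.95 and 3.49 CPM in WT and between 43.2 and 48.7 CPM in KO cells, all but a little of it Msln, with Lrrn4 at 0. Epithelial markers, 5 of 6 detected, gave sums between 0.499 and 1.18 CPM in WT and between 5.53 and 6.68 CPM in KO cells, led by Krt18, with Esrp1 at 0. The mesothelial and epithelial sums did not overlap between genotypes, and their part in the results was not tested.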

How the data were processed

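RNA of 3 WT and 3 KO MEF libraries was sequenced as 150 bp paired reads and, by the study's methods and GEO notes, processed with fastp, aligned with HISAT2 2.0.5 and counted per gene with featureCounts 1.5.0-p3. The authors deposited raw read counts per gene and, in a separate file, FPKM per gene. The GEO notes name GRCm38, while the coordinates in the files are those of GRCm39, as given here. No other per-sample columns were present.

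From the counts, edgeR 4.0.16 (R 4.3.3) was run with TMM scaling and the quasi-likelihood test on the 26898 genes with a count in at least 1 library, without covariates, with Benjamini-Hochberg adjustment over all of them. A gene was called at an adjusted p below 0.05. The estimated prior degrees of freedom were infinite, and p-values are therefore too low for any gene whose spread exceeds the trend. TMM factors ran from 0.980 to 1.01. Standard errors were the log2 fold change divided by the root of the F statistic, and 95% confidence intervals used the same test. FPKM ratios within a library were compared by an exact two-sided permutation test (SciPy 1.17.1). The fit was also run on simulated counts whose spread followed the trend. Such counts cannot show how it treats genes whose spread exceeds the trend.

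Members with a mean of at least 1 CPM in either genotype were named with values. Members below it were to be named only where called or of class II. H2-Q1, H2-M10.2, H2-Q7, H2-Q10, H2-Q6, H2-T3, Ciita and Cd74 were named outside that rule, after their values were seen. H2-Ke6 was first to be counted as class I-like and was then set apart. Pathway genes were named where called, with values where the log2 fold change also exceeded 0.5 in size at a mean of 1 CPM or more. The members, gene lists and motifs were chosen with earlier results of these data known. Alternatives were DESeq2 1.42.0, limma-voom (limma 3.58.1), robust prior degrees of freedom, a test against a 2-fold change, RLE and total-count scaling, expression filtering, leaving out each library, a block for the replicate number, and thinning to the smallest total.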

Additional observations from a re-analysis of the deposited data

How the results depend on the processing

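Direction held for all 18 members above 1 CPM under every alternative run, except that Tap1 was at -0.012 without WT replicate 2, in a range of -0.01 to 0.13 with 1 library left out. H2-T22 and H2-T24 stayed called under all 15 alternatives, H2-D1, H2-Q4, Psmb8 and H2-T23 under 14 (the test against a 2-fold change was the exception), and Psmb9 under 5. Members called higher numbered 4, and members called lower 3. The test against a 2-fold change gave 0 higher and 2 lower, and 0 were higher with an absolute log2 fold change above 1. With 1 library left out at a time, 3 to 7 members were higher, the 7 without WT replicate 1, and 3 lower. Over all genes, 1337 were higher and 1083 lower; the test against a 2-fold change gave 157 and 43, and an absolute log2 fold change above 1 gave 472 and 179, while leaving out 1 library gave 956 to 1650 and 650 to 1624. The 650 and 680 came without KO replicate 3 and KO replicate 1.

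With log2 of FPKM plus 1, the Psmb9 to Psmb6 difference was 0.23 in place of 0.75 and the Psmb8 to Psmb5 difference 0.15 in place of 0.35. Above 0.1 FPKM there were 23 members and above 5 FPKM 8, in place of 15. The ratio of Nlrc5 to Ciita was not computed, since Ciita had 3 counts or fewer in a library. Same-numbered libraries did not deviate together (correlations of -0.02, -0.02 and 0.04 over 14332 genes), so the values gave no sign of pairing. Whether the numbers stand for a shared culture or preparation is not given in the sources used here. With the replicate number as a block, 4 members were higher and 3 lower and 1330 and 1035 genes. The members below 1 CPM had at most 20 counts in a library, and how their values depend on depth is not given here.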
